A study of Homo sapiens with 4 samples.

Results

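The genes described here are CIITA and the genes of the MHC class II pathway that it controls: CD74, HLA-DRA, HLA-DPA1, HLA-DPB1, HLA-DQB1, HLA-DMA, HLA-DMB, HLA-DOA and HLA-DOB. They were taken by symbol from the platform annotation, which named 1 of these 10 genes alone on 24 of the 22277 probe sets of the array. Another 5 probe sets named several class II genes at once and are described apart. The genes were measured in 4 samples with 1 array each: BV-173 untreated, BV-173 after 16 h with 10 μmol/l STI571, SUP-B15 untreated, and SUP-B15 after the same treatment. Both are established Philadelphia chromosome-positive leukemia lines, and all 4 samples therefore carry the BCR-ABL1 fusion kinase, the target of STI571 (imatinib). Each line stands for 1 patient's leukemia grown in culture, so a difference between the lines is a difference between a pair of cultures.

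MHC class II molecules are pairs of an alpha and a beta chain that show peptides from endocytosed proteins to CD4+ T cells. B cells express them from early stages on, and so do many B precursor leukemias. CIITA is the coactivator that switches the class II genes on; it does not bind DNA itself but docks on RFX, CREB and NF-Y proteins that sit on the X and Y boxes of the class II promoters. The classical chains are HLA-DR, HLA-DP and HLA-DQ, CD74 is the invariant chain that escorts them out of the endoplasmic reticulum, HLA-DM exchanges the remnant of CD74 for a peptide, and HLA-DO restrains HLA-DM in B cells.

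The promoters are shown because the genes share one control module and were followed together. RefSeq's table of GRCh38.p14 held 9 promoters for 8 of the 10 genes; HLA-DRA and CIITA were not matched. The 250 bases before each start were searched on both strands for an X box core, AG, any 2 bases, AC, any base, GAT, and for a Y box core, ATTGG. The cores do not overlap in the windows below, other than in HLA-DMB, where the reverse X core runs into the reverse Y core. In the 4 windows with an X core, capitals mark each X core and each Y core (CCAAT where it lies on the other strand).
HLA-DQB1: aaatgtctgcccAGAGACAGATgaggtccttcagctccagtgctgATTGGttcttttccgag
HLA-DMA: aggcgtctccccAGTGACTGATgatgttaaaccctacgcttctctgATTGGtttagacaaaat
HLA-DOA: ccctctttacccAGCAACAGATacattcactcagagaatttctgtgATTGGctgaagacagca
HLA-DMB: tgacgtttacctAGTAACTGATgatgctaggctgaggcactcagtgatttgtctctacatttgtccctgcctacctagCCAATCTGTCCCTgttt
These windows lie at chr6:32666729-32666790 (minus strand), chr6:32953160-32953222 (minus strand), chr6:33009642-33009704 (minus strand) and chr6:32941034-32941128 (minus strand). In HLA-DQB1, HLA-DMA and HLA-DOA the X core was followed on the gene's strand by a Y core after 23, 24 and 24 bases. That order, with 10 to 40 bases between the cores, was found in 0.0399% of 35116 RefSeq promoters of the same length. It was present for 13 genes, of which 5 were class II genes: HLA-DQB1, HLA-DMA and HLA-DOA with HLA-DRB1 and HLA-DRB5. The cores searched were those of the class II boxes, so class II genes among the 13 were favoured by that choice. An X core, with or without a Y core, was found in 1.94% of the promoters and a Y core in 32% of them.

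The promoters of CD74, HLA-DOB and HLA-DPB1 held a Y core but no X core in these letters, and are printed with the 50 bases before the first Y core.
CD74: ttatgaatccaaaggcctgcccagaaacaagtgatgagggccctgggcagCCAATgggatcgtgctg
HLA-DOB: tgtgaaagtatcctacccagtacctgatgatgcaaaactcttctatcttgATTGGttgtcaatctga
HLA-DPB1: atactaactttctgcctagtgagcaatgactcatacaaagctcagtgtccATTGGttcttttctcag
They lie at chr5:150412947-150413013 (minus strand), chr6:32817084-32817150 (minus strand) and chr6:33075841-33075907 (plus strand). The 2 promoters listed for HLA-DPA1 held neither core. A match describes letters in a window, and a missing one says only that these letters are not in it.

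Signals are the deposited values on a linear scale, given for each line with the untreated array first and the STI571 array second. Changes are differences of log2(signal + 24.5), where 24.5 is the 25th percentile of all signals, so changes of dim genes are understated. Detection calls were not used here, so each array's median signal, 95.5 to 115, served as the mark of a dim probe set. For each gene the probe set with the highest mean log2 signal stood for the gene, out of those that reached the array median in at least 1 array, which left 7916 genes. All 10 genes passed, but HLA-DOB did so through untreated BV-173 alone and HLA-DOA through BV-173 alone, with 1 probe set in the treated and another in the untreated array. The average effect of STI571 and the average difference between the lines were tested with limma in 1 fit to all 4 arrays, with Benjamini-Hochberg adjustment over the 7916 genes and a threshold of 0.05. That fit has 1 residual degree of freedom and an infinite prior, so each standard error is the value expected at a gene's brightness and not the gene's own spread. The response of 1 line, and the difference between the responses of both, rest on 1 array per group and have no test. In cultures measured in bulk, fewer expressing cells and less RNA per cell cannot be told apart.

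Of the B lineage markers 6 of 8 were on the array, and all 6 exceeded the median in every array. Their summed signal was 7759 and 15164 in BV-173, and 22729 and 31290 in SUP-B15. BLNK made up much of it, with 2169 and 6964 in BV-173 and 12281 and 16793 in SUP-B15, and CD22 was lower in SUP-B15, at 983 and 1033.5 against 712 and 379. The part of B lineage content in the class II values was not tested. The same sum was 221 to 341 for 8 T cell markers, 157.0 to 465 for 8 myeloid markers, 212 to 454 for 7 dendritic cell markers and 329 to 1185 for 5 natural killer cell markers. Of the myeloid markers MPO read 8.3 and 59.3 in BV-173 with 196 and 162.0 in SUP-B15, CSF1R 11.2 and 39.6 with 156 and 77.7, and CD14 3.8 and 4.3 with 9.1 and 9.8. FCGR1A (56.2 and 7.3 with 5.3 and 7), LYZ (59 and 6.3 with 51.5 and 3.2) and S100A9 (16.2 and 17 with 12.8 and 5.3) were lower in SUP-B15. ELANE read 7.6 and 12.6 with 10.9 and 28.6, and S100A8 24.2 and 10.6 with 22.5 and 34.7. Of the natural killer cell markers KLRF1 read 355.5 and 682.4 with 42.1 and 1.5, and NKG7 146.6 and 274.6 with 391.7 and 192.5. The mean signal of the 18S ribosomal RNA controls was 2817 in treated BV-173 and 1513 to 1596 in the other arrays, and its part in the BV-173 responses was not tested.

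With STI571 no class II gene passed the test. The classical chains and CD74 had changes of −0.07 to 0.20 on the log2 scale in BV-173, and all 5 were below 0 in SUP-B15, from −0.86 for HLA-DPB1 to −0.17 for HLA-DRA. Of the 10 genes limma called 0 for STI571, against 3.02% of all genes (1.62% lower and 1.4% higher), and 0 had an unadjusted p under 0.05, against 12.3% of all genes. Between the lines limma called 4 of the 10, against 28.7% of all genes, and all 4 were lower in SUP-B15: HLA-DPA1, HLA-DQB1, CD74 and HLA-DRA. In each direction 14.4% of all genes were called. The median line difference of the 10 genes was −0.41 on the log2 scale, against −0.04 over all genes.

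**Figure D1:**
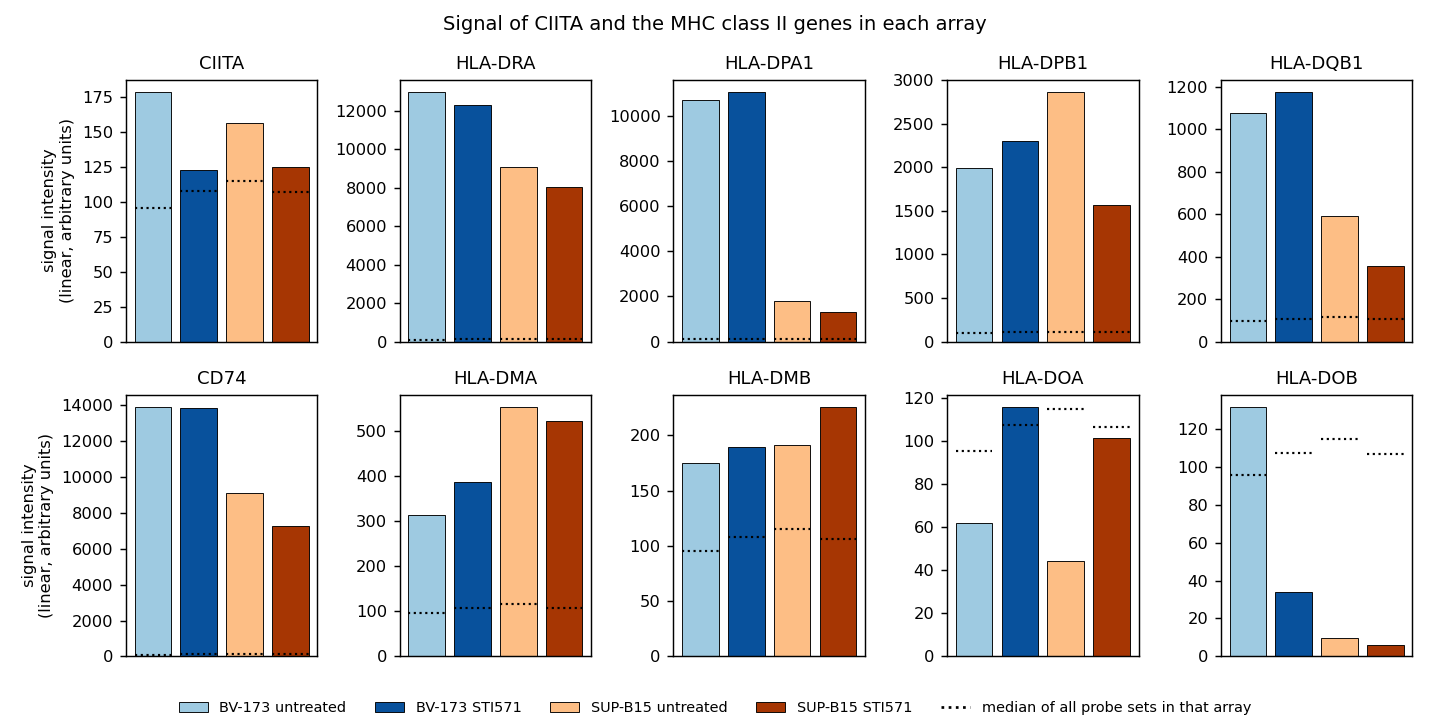
Signal intensity (linear axes from 0, arbitrary units, 1 scale per gene) of the probe set that stands for each gene, with 1 bar per array and no replicates; dotted lines mark the median of all probe sets in that array. HLA-DPA1 reads 11062 in treated BV-173 and 1316 in treated SUP-B15, and HLA-DOB exceeds the median only in untreated BV-173.

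CIITA, the switch of the pathway, had no line difference that passed the test. Its brightest probe set read 178 and 123 in BV-173, and 156 and 125 in SUP-B15. Both treated arrays lay below both untreated ones, and all 4 exceeded their array's median. On the log2 scale BV-173 changed by −0.46 and SUP-B15 by −0.28, with a mean of −0.37 (SE 0.46; limma adjusted p = 0.867). The difference between the lines was −0.07 (SE 0.46; limma adjusted p = 0.927). The other 2 CIITA probe sets were below the median in all 4 arrays: one read 88.7 and 97.6 in BV-173 with 90.1 and 63.4 in SUP-B15, the other 13.8 and 84.0 with 43.3 and 4.4. Neither repeated the lower signal in treated BV-173.

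HLA-DRA, the alpha chain shared by all HLA-DR molecules, had signals of 12951 and 12300.5 in BV-173, and 9040.3 and 8009 in SUP-B15. Both SUP-B15 arrays were below both BV-173 arrays. The line difference was −0.57 (SE 0.21; limma adjusted p = 0.0317), or 1.43-fold lower in untreated and 1.53-fold lower in treated SUP-B15. This call ended with no filter on dim probe sets (adjusted p = 0.0754), with treatment left out of the fit (0.0658) and without the intensity trend (0.217). With STI571 the BV-173 change was −0.07 and the SUP-B15 change −0.17 (mean −0.12, SE 0.21; limma adjusted p = 0.914). The second probe set read 8656 and 8178 in BV-173 and 6920.2 and 5049.8 in SUP-B15, again lower in SUP-B15 in both conditions (limma adjusted p = 0.053 in the fit to probe sets).

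HLA-DPA1, the alpha chain of HLA-DP, had a large line difference. Its signal was 10703.5 and 11062 in BV-173, against 1777.0 and 1316 in SUP-B15. The line difference was −2.81 (SE 0.20; limma adjusted p = 1.94e-40, from a spread shared over genes), which put HLA-DPA1 at rank 40 from the lowest of 7916 genes, and it remained called in every alternative fit. The gap was 5.96-fold in untreated and 8.27-fold in treated cells, and HLA-DPA1 was at least 2-fold lower in SUP-B15 in both conditions, as were 5.43% of all genes. With a pseudocount of 1 HLA-DOB was too, by −3.63 in untreated and −2.29 in treated arrays. Its mean line difference was then −2.96 without passing the test (limma adjusted p = 0.433), from dim SUP-B15 signals of 9.7 and 6.1. In that fit HLA-DPA1 had −2.83 (limma adjusted p = 7.97e-42). The size of the HLA-DPA1 difference depended on the probe set. The second one read 3739 and 3089 in BV-173 and 2209 and 1296 in SUP-B15, which is 1.69-fold in untreated and 2.36-fold in treated cells. With the mean of the kept probe sets the line difference became −1.90 (limma adjusted p = 7.85e-07). The third was below the median in all arrays, at 57.9 and 87.8 in BV-173 with 54.7 and 5.5 in SUP-B15. Class II genes vary in sequence between people, and whether the probes match the alleles of each line was not tested. With STI571 the brightest probe set had changes of 0.05 for BV-173 and −0.43 for SUP-B15 (mean −0.19, SE 0.20; limma adjusted p = 0.836). The second had −0.27 and −0.76 (mean −0.52, limma adjusted p = 0.203 in the fit to probe sets).

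HLA-DPB1, the beta chain that pairs with HLA-DPA1, had no such gap on average. Its only probe set read 1994 and 2300 in BV-173, and 2865 and 1569 in SUP-B15. SUP-B15 was thus the highest array before treatment and the lowest after it. The average line difference was −0.01 (SE 0.21; limma adjusted p = 0.971), made of 0.52 in untreated and −0.54 in treated arrays. The BV-173 response was 0.20 and the SUP-B15 response −0.86, a 1.81-fold lower signal after STI571 in SUP-B15. The responses differed by −1.06 on the log2 scale, a difference with no test. Their mean was −0.33 (SE 0.21; limma adjusted p = 0.607).

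HLA-DQB1, the beta chain of HLA-DQ, had 7 probe sets, of which 5 passed the filter. The brightest read 1079.5 and 1176 in BV-173, and 594 and 357 in SUP-B15. Both SUP-B15 arrays lay below both BV-173 arrays, and the line difference was −1.24 (SE 0.24; limma adjusted p = 2.93e-06). The suffix of this probe set marks probes that can match other transcripts too. With gene-specific probe sets alone, another probe set stood for the gene and the call ended (line difference −0.29, limma adjusted p = 0.5). That probe set read 444 and 339.6 in BV-173 and 302 and 323 in SUP-B15. The call also ended without the intensity trend (0.0888). With STI571 the brightest probe set had changes of 0.12 for BV-173 and −0.70 for SUP-B15. The other kept probe sets did not give 1 direction. One of them, at 759 and 945 in BV-173 with 339 and 242.5 in SUP-B15, had changes of 0.31 and −0.44. Another, at 325 and 439 with 378 and 148, had 0.41 and −1.22. A further one, at 206 and 215 with 30.3 and 106, had 0.05 and 1.25, and passed the filter through BV-173 alone. The gene-specific one had −0.36 and 0.09. The mean change of the brightest was −0.29 (SE 0.24; limma adjusted p = 0.748). The last 2 probe sets were below the median in all arrays, at 50.7 and 68.0 in BV-173 with 58.7 and 48.0 in SUP-B15, and at 5.1 and 5.6 with 2.5 and 8.9.

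CD74, the invariant chain, was also lower in SUP-B15. Its signals were 13909 and 13853 in BV-173, and 9101 and 7284 in SUP-B15. Both SUP-B15 arrays were below both BV-173 arrays, with a line difference of −0.77 (SE 0.22; limma adjusted p = 0.00217), 1.53-fold in untreated and 1.90-fold in treated cells; without the intensity trend adjusted p was 0.142. The STI571 change was −0.01 for BV-173 and −0.32 for SUP-B15 (mean −0.16, SE 0.22; limma adjusted p = 0.878).

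Neither chain of the peptide exchange factor HLA-DM passed a test. HLA-DMA read 314 and 387 in BV-173, and 553 and 522.0 in SUP-B15, so that both SUP-B15 arrays were the higher ones. The line difference of 0.59 (SE 0.28) did not pass the test (limma adjusted p = 0.0944). HLA-DMB read 175 and 189.5 in BV-173 and 191 and 225.5 in SUP-B15, with a line difference of 0.17 (SE 0.39; limma adjusted p = 0.788) and STI571 changes of 0.10 and 0.21 (mean 0.16; limma adjusted p = 0.951). The STI571 changes of HLA-DMA were 0.28 and −0.08 (mean 0.10; limma adjusted p = 0.954).

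The chains of HLA-DO were dim. HLA-DOA read 61.9 and 116 in BV-173, and 44.2 and 101 in SUP-B15. Both treated arrays exceeded both untreated ones, by 0.70 and 0.87 on the log2 scale (mean 0.78, SE 0.69; limma adjusted p = 0.778). The other 3 HLA-DOA probe sets were dim too and did not share 1 direction. One read 105 and 11.2 in BV-173 with 12.7 and 70.2 in SUP-B15. The other two were below the median throughout: one read higher with STI571 in both lines, 55.1 and 67.2 with 48.7 and 60.7, and the other 9.2 and 9.8 with 69.1 and 58.7. HLA-DOB read 132 and 33.8 in BV-173 with 9.7 and 6.1 in SUP-B15, so that untreated BV-173 stood above the other 3 arrays. HLA-DOB passed the filter through untreated BV-173 alone, so a fall from that array was favoured by the selection. Its change in BV-173, −1.42, was the only one of the 10 genes to reach 2-fold in a single line, where 4.6% of all genes were at least 2-fold lower and 6.91% at least 2-fold higher. In SUP-B15 0 of the 10 did, against 5.68% lower and 4.08% higher. The HLA-DOB change became smaller than 2-fold with a pseudocount of 98. The mean change was −0.79 (SE 1.2; limma adjusted p = 0.895) and the line difference −1.56 (SE 1.2; limma adjusted p = 0.357).

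**Figure D2:**
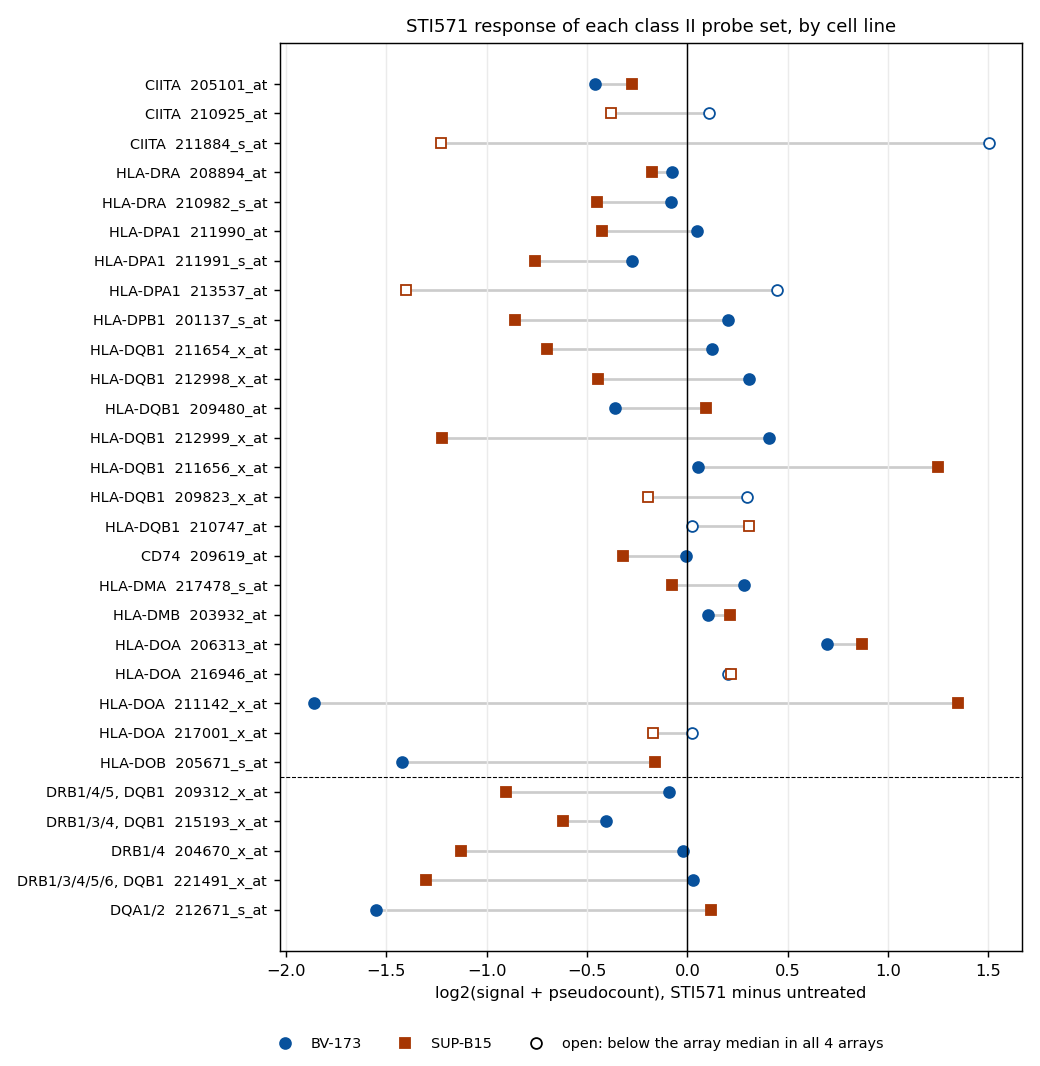
Change after STI571, as a difference of log2(signal + 24.5) on the horizontal axis, for each of the 24 member probe sets and, below the dashed line, the 5 that name several class II genes; circles are BV-173, squares SUP-B15, and open symbols mark probe sets below the median in all 4 arrays. SUP-B15 lies left of 0 for 12 of the 17 kept member probe sets, and BV-173 for 8, against 50.1% and 46.7% of all kept probe sets. Several of the 17 read the same gene, 5 of them HLA-DQB1, so they are not separate observations.

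The HLA-DR beta chains are read by 4 probe sets that name several genes and by 6 that name 1. The one for HLA-DRB1 and HLA-DRB4 read 3936 and 3882 in BV-173, and 2293 and 1035.5 in SUP-B15. Its log2 change was thus −1.13 for SUP-B15 and −0.02 for BV-173. The probe set for HLA-DRB1, HLA-DRB4, HLA-DRB5 and HLA-DQB1 read 5146 and 4826 in BV-173 and 2591 and 1371.5 in SUP-B15, with changes of −0.09 and −0.91. For the one that names HLA-DRB3 in place of HLA-DRB5, the signals were 4459.8 and 3356 in BV-173 and 1755 and 1132 in SUP-B15. The last of this kind, which names HLA-DRB6 as well, read 256 and 262 in BV-173, and 255 and 89.0 in SUP-B15, close to each other before treatment. A probe set annotated to HLA-DRB1 alone read 5895 and 5763 in BV-173 and 2975 and 1947.5 in SUP-B15. These 5 beta chain probe sets were lower in treated than in untreated SUP-B15. One for HLA-DRB6 alone, above the median in all arrays, read 161.5 and 432 in BV-173 and 276 and 237 in SUP-B15, so that treated BV-173 was the highest. The other 4, of HLA-DRB4 and HLA-DRB6, were below the median in all arrays, with signals of 4.2 to 17.3 in untreated and 4.9 to 33.8 in treated SUP-B15, each higher after treatment. The probe sets name overlapping sets of related genes, so they are not separate observations. The fifth probe set with several names, for HLA-DQA1 and HLA-DQA2, was higher in SUP-B15, with 59.7 and 4.2 in BV-173 and 137 and 150.5 in SUP-B15. Those of HLA-DQA1 alone read 77.1 and 46.6 in BV-173 with 162 and 99.4 in SUP-B15, and 5.2 and 15.6 with 6.3 and 39.3. That of HLA-DQB2 read 51.1 and 19.8 with 126 and 72.2. These were higher in SUP-B15 but dim, above the median in untreated SUP-B15 at most. HLA-DPA2 read 116 and 114.5 with 78.1 and 105, lower in SUP-B15.

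Over the genes together, 8 of 10 had a change below 0 in SUP-B15, against 51.3% of all genes, with a median of −0.22 (−0.01 over all genes). In BV-173 4 of 10 were below 0, against 46.4% of all genes, with a median of 0.08 (0.05 over all genes). The change was lower in SUP-B15 than in BV-173 for 6 of the 10 genes, against 54.4% of all genes. At 1.5-fold, HLA-DPB1 and HLA-DQB1 were lower in SUP-B15, as were 14.3% of all genes. Small changes depended on how the arrays were scaled. Giving all arrays a common median moved the median change over all genes to −0.11 in BV-173 (from 0.05) and to 0.08 in SUP-B15 (from −0.01), and the median line difference to −0.15 (from −0.04). On that scale HLA-DPA1 (−0.12), HLA-DQB1 (−0.05) and HLA-DMB (−0.05) had changes below 0 in BV-173, HLA-DMA (0.03) had one above 0 in SUP-B15, and for HLA-DRA the response in SUP-B15 minus that in BV-173 turned from −0.10 to 0.18. The difference between the responses stayed at −0.78 for HLA-DPB1 and −0.54 for HLA-DQB1.

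**Figure D3:**
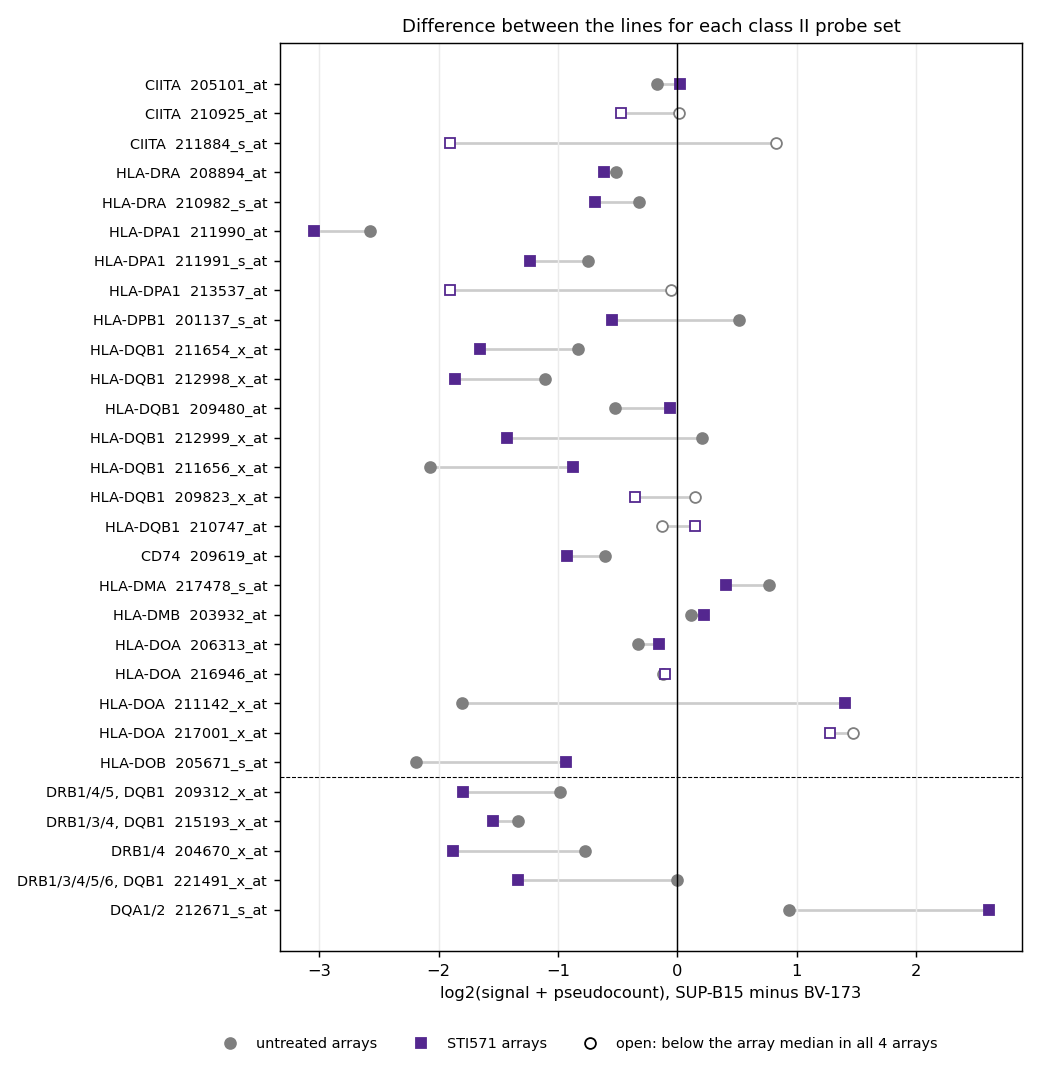
Difference between the lines, SUP-B15 minus BV-173 in log2(signal + 24.5) on the horizontal axis, for the same probe sets; circles are the untreated and squares the treated arrays, and open symbols mark probe sets below the median in all 4 arrays. In each condition 13 of the 17 kept member probe sets lie left of 0, the brightest HLA-DPA1 probe set furthest. The kept ones of HLA-DOA and HLA-DOB and 1 of HLA-DQB1 passed the filter through BV-173 alone, which favoured a place left of 0.

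When every kept probe set was tested by itself, limma called 7 of the 17 member probe sets lower in SUP-B15, against 12.8% of all kept probe sets (26.6% in either direction), and 0 higher. They were the 2 bright ones of HLA-DPA1, 3 of HLA-DQB1, the brighter one of HLA-DRA and that of CD74. Of the 3 HLA-DQB1 probe sets 1, at 206 and 215 in BV-173 with 30.3 and 106 in SUP-B15, passed the filter through BV-173 alone. A lower signal in SUP-B15 was thus favoured by the selection for that one. For STI571 0 of the 17 were called, against 2.94% of all kept probe sets. An unadjusted p under 0.05 was found for 1 of them, and for 1386 of all 11818 kept probe sets. It was the second HLA-DPA1 probe set (limma adjusted p = 0.203). In untreated arrays 13 of the 17 were lower in SUP-B15 (49.2% of all kept probe sets), and 13 in treated arrays (51.7%). The kept probe sets of HLA-DOA and HLA-DOB and 1 of HLA-DQB1 passed the filter through BV-173 alone. For these a lower signal in SUP-B15 was favoured by the selection. Several of the 17 read the same gene, so they are not separate observations.

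The proteins that CIITA docks on, and the factors that induce it, had 1 call for STI571. Of 18 genes measured out of 22 listed, limma called 1 higher (1.4% of all genes) and 0 lower (1.62%). An unadjusted p under 0.05 was found for 6 (12.3% of all genes), and the median change was 0.26 (0.02 over all genes). The gene called was TCF3, which encodes the E proteins of B lineage commitment, with changes of 0.77 and 0.66 in the 2 lines (limma adjusted p = 0.0286). The call ended with no filter (0.0716), the mean of probe sets (0.298), gene-specific probe sets (0.845) and no intensity trend (0.598). The RFX subunits RFX5 and RFXANK had mean changes of 0.13 and 0.24 (limma adjusted p = 0.904 and 0.831). RFXAP, the subunit that completes the RFX complex, read 197 and 9.7 in BV-173 and 68.8 and 93.7 in SUP-B15 (mean −1.18, SE 0.73; limma adjusted p = 0.587). RFXAP passed the filter through untreated BV-173 alone, so a fall from that array was favoured by the selection. PRDM1, the plasma cell repressor that silences CIITA, read 84.2 and 48.3 in BV-173 and 196 and 74.3 in SUP-B15 (mean −0.87; limma adjusted p = 0.683). It passed through untreated SUP-B15 alone, which favoured a fall from that array. Between the lines 4 of the 18 were called higher in SUP-B15 and 1 lower, where 14.4% of all genes were called in each direction and 28.7% in either. IRF8, an interferon regulatory factor of B and myeloid cells, was furthest apart, at 105 and 56.3 in BV-173 against 1307 and 633.0 in SUP-B15 (line difference 3.19, SE 0.32; limma adjusted p = 4.12e-21). The kinase JAK1, which relays interferon signals, was called too, at 1.43 (SE 0.22), and SPI1 had −1.50 (SE 0.83; limma adjusted p = 0.172). SPI1 passed the filter through treated BV-173 alone, which favoured a lower signal in SUP-B15.

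Of 12 coactivators and chromatin partners of CIITA, 0 were called for STI571 by limma (3.02% of all genes). An unadjusted p under 0.05 was found for 1 (12.3% of all genes), and their median change was 0.15. CREBBP, an acetyltransferase that CIITA recruits, had 0.40 and 0.68 (limma adjusted p = 0.185), KAT2B 0.63 and 0.22, and CDK9, the elongation kinase, 1.13 and −0.33. Between the lines 5 of the 12 were called higher in SUP-B15 and 2 lower (14.4% of all genes in each direction), with NCOA1 (1.84), CDK9 (1.81) and TAF6 (−0.99) furthest apart. Without the intensity trend the calls of CDK9 (adjusted p = 0.0795) and TAF6 (0.0883) ended.

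Among 15 genes of class II antigen processing, limma called 1 higher for STI571 (1.4% of all genes) and 0 lower (1.62%). An unadjusted p under 0.05 was found for 2 (12.3% of all genes), and the median change was 0.05. LAMP2, a lysosomal membrane protein, rose by 0.66 and 1.02 in the 2 lines (limma adjusted p = 0.00629). The call ended with a common median (0.13), without the trend, and when probe sets were averaged (0.314). CTSS, the protease that trims CD74, had 0.38 and −0.00 without passing. CTSZ read 260 and 144.0 in BV-173 and 97.4 and 46.4 in SUP-B15 (limma adjusted p = 0.654). Between the lines 4 of the 15 were called lower in SUP-B15 and 1 higher, where 14.4% of all genes were called in each direction and 28.7% in either. LGMN, an endosomal protease, read 269 and 231 in BV-173 and 20.1 and 115 in SUP-B15 (line difference −1.80, SE 0.51; limma adjusted p = 0.00266; 0.105 without the trend). CD82, a tetraspanin of class II compartments, read 180.4 and 246 in BV-173 against 24.2 and 16.3 in SUP-B15 (−2.40, SE 0.69; limma adjusted p = 0.00272). CD82 passed the filter through BV-173 alone, the line where it was high, and with no filter its limma adjusted p was 0.00318. CST3, which passed the filter through untreated SUP-B15 alone, had 1.78 without passing the test (limma adjusted p = 0.209; it passed with no filter, 0.0341).

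Of 10 measured costimulatory and adhesion genes of the T cell synapse, 1 was called lower for STI571 (1.62% of all genes) and 1 higher (1.4%). An unadjusted p under 0.05 was found for 3 (12.3% of all genes). TNFSF4, the OX40 ligand, read 288 and 130.3 in BV-173 and 1032 and 427 in SUP-B15 (mean −1.12, SE 0.29; limma adjusted p = 0.00792). As for every gene called for STI571, this call ended without the intensity trend (0.555) and without the cell line term. CD58, the ligand of CD2, read 667 and 1693 in BV-173 and 756 and 929 in SUP-B15 (mean 0.80, SE 0.23; limma adjusted p = 0.0203). The CD58 call also ended with quantile normalization (0.053), a common median (0.199), the mean of probe sets (0.234), gene-specific probe sets (0.896) and no trend (0.64). ICAM1 had −0.82 and −1.65 without passing (limma adjusted p = 0.626). In SUP-B15 5 of the 10 were at least 2-fold lower after STI571, against 5.68% of all genes, and in BV-173 1 of the 10, against 4.6%. The 5 were TNFSF4, CD48, ICAM1, ICAM3 and CD70. ICAM1 and CD70 passed the filter through untreated SUP-B15 alone, so a fall from that array was favoured by the selection. ICAM3 was below the median in both SUP-B15 arrays, at 80.4 and 26.2. CD48, a ligand of the CD2 family, was one of the 5 in SUP-B15, with signals of 3458.5 and 3380.1 in BV-173 and 1463.5 and 670.4 in SUP-B15. It was also lower in SUP-B15 than in BV-173 (−1.76, SE 0.21; limma adjusted p = 1.99e-15; 0.06 without the trend), as was ICAM3 (−2.42, SE 0.46). ICAM3 passed the filter through BV-173 alone, the line where it was high, and with no filter its limma adjusted p was 0.000229.

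Class I antigen presentation had few calls. Of 18 class I pathway genes 0 were called for STI571 by limma (3.02% of all genes), and 2 had an unadjusted p under 0.05 (12.3%). Between the lines 1 was called higher in SUP-B15 and 0 lower (14.4% of all genes in each direction). The median line difference was 0.17, against −0.41 for the class II genes. The light chain B2M read 32229 and 36428 in BV-173 and 37501 and 36467 in SUP-B15. HLA-F was the gene called, at 4118 and 5795 in BV-173 and 7586 and 10692.5 in SUP-B15 (0.88, SE 0.21; limma adjusted p = 0.000189). That call ended with gene-specific probe sets (0.116) and without the trend (0.106). The chaperone PDIA3, HLA-E and TAP2, the other genes furthest from 0, had mean STI571 changes of −0.43, 0.31 and 0.05 and line differences of 0.18, −0.49 and −0.71, without passing either test. The HLA-E line difference passed with quantile normalization (0.0353), a common median (0.0123) and the 75th percentile filter (0.0445).

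Genes next to the class II genes on chromosome 6 that encode no class II chain had 1 call. Of 20 such genes 0 were called lower in SUP-B15 and 1, DAXX, higher (0.83, SE 0.30; limma adjusted p = 0.0236), where 14.4% of all genes were called in each direction, with a median line difference of 0.01. The DAXX call ended with a common median (0.0796), no filter (0.0672), the mean of probe sets (0.215), treatment left out (0.0596) and no trend (0.119). BRD2, which the RefSeq annotation of GRCh38.p14 places between HLA-DMA and HLA-DOA, read 1508.0 and 1537 in BV-173 and 1922 and 1960 in SUP-B15. TAP1, between HLA-DOB and HLA-DMB in the same annotation, read 1300.1 and 1577 in BV-173 and 1336 and 1300.4 in SUP-B15. For STI571 limma called 0 of the 20 (3.02% of all genes), and 0 had an unadjusted p under 0.05 (12.3%). COL11A2 (0.02 and −1.18), KIFC1 (0.38 and 0.53) and AGER (0.71 and 0.11) had the largest mean changes. AGER passed the filter through treated SUP-B15 alone, which favoured a rise in that line.

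**Figure D4:**
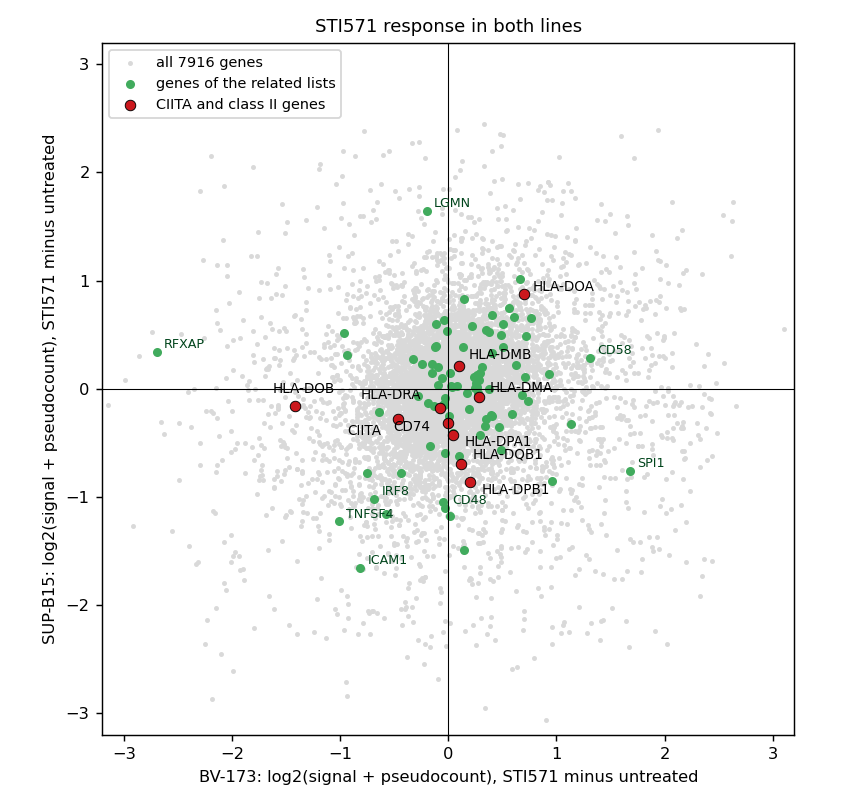
Change after STI571 in BV-173 (horizontal) and SUP-B15 (vertical), both as differences of log2(signal + 24.5), for all 7916 genes (grey; 6 lie outside the axes), the measured genes of the related lists (green) and the 10 class II pathway genes (red). HLA-DPB1 and HLA-DQB1 lie below 0 in SUP-B15 and just above it in BV-173, and HLA-DOA is positive in both lines.

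Over the 4 arrays, the genes whose profile lay closest to that of CIITA were MDC1, TIMM10, AKTIP, UTP20 and COQ9, with root mean square distances of 0.014 to 0.034 in log2 units after centring each gene on its own mean. The class II genes were further away, from 0.28 for HLA-DRA and 0.29 for HLA-DMB to 1.38 for HLA-DPA1. 1912 genes lay closer to CIITA than HLA-DRA did, and the distances are a description only.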

How the data were processed

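Total RNA of the 4 samples was labelled with biotin by standard Affymetrix methods, per the labels' protocols, and the submitters' processing notes name GCOS 1.3. The authors deposited 1 linear signal intensity for each probe set. For the probe summary and the scaling target the labels say nothing, and they count as not given in the sources used here. All 4 columns had a trimmed mean of 500.2. Probe sets with several symbols (1043) or none (2108) stayed out of the fit.

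Computed here were log2(signal + 24.5), limma 3.58.1 in R 4.3.3 with cell line and treatment as terms and an intensity trend, and two-sided p-values adjusted over 7916 genes. The cell line pairs the arrays, as the labels give it. Alternatives were quantile normalization, a common median, pseudocounts of 1 and 98, no filter or the 75th percentile, the mean of probe sets, gene-specific or single probe sets, fits without cell line or treatment, no trend, a robust prior, and folds of 1.5 and 3. The fit was tested on simulated data, where changes were recovered at their size on average but, in most sets, more calls were false than the threshold of 0.05 allows. With 1 array per group the number of arrays limits precision.

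The members and lists were chosen with earlier results of these data known. Every member is named and all its probe sets are given; of each related list, genes called for STI571 and the 3 furthest from 0 in each comparison were named, and others (RFX5, RFXANK, CTSS, B2M, BRD2, TAP1) were added after their values were seen.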

Additional observations from a re-analysis of the deposited data

Results flagged for a closer look

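For 4 genes the response to STI571 had opposite signs in the lines, each line having 1 treated and 1 untreated array, and this difference was not tested. The response in SUP-B15 minus that in BV-173 was −1.06 for HLA-DPB1, −0.82 for HLA-DQB1, −0.47 for HLA-DPA1 and −0.36 for HLA-DMA, in log2 units. With a common median the values were −0.78, −0.54, −0.19 and −0.09, and of these 4 genes HLA-DPB1 alone kept opposite signs, with 0.03 for BV-173. On that scale HLA-DMB had opposite signs too, −0.05 for BV-173 and 0.31 for SUP-B15.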

How the results depend on the processing

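For STI571, 0 members were called by limma in the fit reported and in every alternative. With 1 value per gene the smallest adjusted p was 0.436, for HLA-DPB1 with the filter at the 75th percentile. In the fit to single probe sets the second HLA-DPA1 probe set had a limma adjusted p of 0.203. The 4 line differences were all called in the alternatives except that without the intensity trend 1 was left, HLA-DPA1, and that HLA-DRA and HLA-DQB1 lost their calls as given above. The line difference of HLA-DPB1 turned from −0.01 to 0.024 with quantile normalization, and the STI571 change of HLA-F from 0.49 to −0.16 with gene-specific probe sets. In BV-173 1 member was 2-fold lower and 0 higher; these became 0 lower with a pseudocount of 98 or a 3-fold threshold, and 1 higher at 1.5-fold. In SUP-B15 0 were 2-fold lower or higher; at 1.5-fold 2 were lower and 1 higher, and with a pseudocount of 1 1 was higher. The filter at the 75th percentile kept 6 members and gene-specific probe sets kept 7. Without the replicate block for cell line, 0 members and 0 genes were called for STI571 (70 genes at an unadjusted p under 0.05). Over all genes 239 calls for STI571 became 153 with a common median, 116 with the mean of probe sets, 139 with gene-specific probe sets and 0 without the trend (658 at an unadjusted p under 0.05); 2273 line calls became 1460 without treatment, 1352 with gene-specific probe sets and 629 without the trend. The probe sets that stand for HLA-DOA and HLA-DOB reached the array median in 1 array each, and their standard errors were the largest of the 10 genes.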
